A study of Mus musculus with 18 samples.

Results

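Schwann cells and satellite glia are the glia of the peripheral nervous system, and 8 genes that mark them were followed in the DRG and epidermis of mutant and control mice. Mbp, Pmp22, Prx and Mag encode proteins of the myelin sheath, Sox10 encodes the transcription factor shared by both kinds of glia, and Fabp7, Kcnj10 and Gfap are genes of satellite glia. A gene was taken where the array has a probe set paired with that gene and no other. This held for 7 of the 8 genes, each with 1 probe set, out of 19938 genes measured in this way, and Prx, the periaxin gene, was not analysed here. Mutant mice were K14Cre-Trpa1 fl/fl and control mice were K14Cre-Trpa1 +/+, called wild type in the labels. Both genotypes thus carried Cre under the control of the keratin 14 promoter, which drives it in keratinocytes. The loxP sites of the mutant lie around the exons for the pore of the ion channel TRPA1, and per the methods the excised product was absent in DRG. The mice were adult males of a mixed C57BL/6, CBA and Swiss Webster background. Mutant and control colonies had been bred apart for many generations, so colony and genotype cannot be told apart. The arrays covered CFA mutant, CFA control, naive mutant and naive control epidermis of the glabrous hindpaw, and naive mutant and naive control DRG of lumbar levels 1 to 6, with 3 arrays in each of these 6 groups. CFA, complete Freund's adjuvant, is an oil emulsion with killed mycobacteria that inflames the tissue it is injected into, and epidermis was taken 2 days later.

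In peripheral nerve, each myelinating Schwann cell wraps 1 axon segment in compact myelin, while non-myelinating Schwann cells hold bundles of thin axons. Satellite glia instead form an envelope around the cell body of each neuron in the ganglion, where they buffer potassium and take up transmitter. Both lineages come from the neural crest and need SOX10. Whole ganglia were hybridised, so each DRG array mixes neurons, glia, vessels and connective tissue, and fewer glia and less glial RNA per cell cannot be told apart. Epidermis was peeled from the dermis and holds keratinocytes, melanocytes and fine nerve endings, but not the nerve trunks where myelin lies.

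The arrays were alike within a tissue. Array medians were 6.51 to 6.58 in DRG and 5.37 to 5.48 in epidermis on the log2 scale of RMA, the summary that corrects background, equalises arrays and combines the probes of a set. Background was read on each array from 1205 probe sets for odorant and vomeronasal receptors, as their 95th percentile, and it lay at 5.77 to 5.93 in DRG, 4.70 to 4.79 in CFA epidermis and 4.58 to 4.68 in naive epidermis. Of all probe sets paired with a gene, 71.0% to 72.4% passed this background on a DRG array and 67.6% to 69.4% on an epidermis array. All 12 markers of sensory neurons were above background on every DRG array. Of 6 markers of oligodendrocytes, the myelinating cells of the central nervous system, Mobp and Hapln2 were above it on every DRG array and Opalin and Ermn on none. Trpa1 itself had 8.84, 8.44 and 8.54 in mutant DRG, against 8.99, 8.89 and 9.08 in control DRG, and was below background on all 12 epidermis arrays. The sources used here do not say where its probes lie against the loxP sites, so these values do not check the labels.

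Upstream sequence could be matched for 6 members in the RefSeq promoter windows (assembly GRCm38.p6). The windows of a satellite glia gene and of both measured myelin genes with a window are shown, and no comparison of signal below rests on them. Each line is the 250 bases before the outermost listed transcript start, 5′ to 3′ on the strand of the gene, and capitals mark a SOX core. The cores searched were ACAAAG and ACAAT on both strands, which differ after their first 4 letters and so cannot match the same place. Fabp7 (chr10:57784673-57784922, plus strand) has 1 listed start and holds 1 core, Mag (chr7:30914923-30915172, minus strand) has 3 starts and holds 1, and Pmp22 (chr11:63128732-63128981, plus strand) has 4 starts and holds 0.
Fabp7: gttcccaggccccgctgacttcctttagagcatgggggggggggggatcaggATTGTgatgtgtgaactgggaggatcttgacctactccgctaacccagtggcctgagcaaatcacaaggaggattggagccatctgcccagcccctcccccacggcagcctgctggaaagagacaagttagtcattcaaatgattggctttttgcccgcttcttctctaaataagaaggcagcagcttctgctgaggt
Mag: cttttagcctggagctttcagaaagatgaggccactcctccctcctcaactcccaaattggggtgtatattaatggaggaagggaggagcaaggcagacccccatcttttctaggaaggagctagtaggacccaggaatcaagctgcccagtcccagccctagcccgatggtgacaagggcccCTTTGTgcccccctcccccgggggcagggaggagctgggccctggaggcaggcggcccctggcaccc
Pmp22: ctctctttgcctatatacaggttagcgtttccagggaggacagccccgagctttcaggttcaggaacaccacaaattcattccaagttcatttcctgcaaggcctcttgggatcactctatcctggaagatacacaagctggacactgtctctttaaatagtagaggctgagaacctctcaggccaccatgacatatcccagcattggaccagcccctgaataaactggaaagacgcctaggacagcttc
Of the 6 windows, those of Fabp7 and Mag held a SOX core, and 39.3% of all 27025 windows of this length did. The core of RBPJ, the DNA-binding partner of Notch, searched as TGGGAA on both strands, was in the outermost windows of Fabp7, Gfap and Prx and in 21.5% of all windows. It was also in the window of 1 further listed start each of Mag and Pmp22, and these windows are not shown. A match is a string of letters, and binding was not measured.

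In DRG, no member differed between mutant and control mice beyond the spread between arrays. Of the 7, 0 were called at an adjusted p under 0.05 by limma, a linear model of each probe set with a shared estimate of spread, where 0.0726% of the 23410 probe sets tested were called. That share rests on 17 calls, which became 9 when mutant replicate 2 was left out, 203 when control replicate 1 was and 8 when control replicate 2 was, while 0 members were called in each of these fits. At an unadjusted p under 0.05 the count of members was also 0, against 7.15% of all probe sets. Their median log2 difference, mutant minus control, was 0.01, and that of all probe sets was 0.00. The 95% intervals of the 7 differences all lay within 1.27-fold in either direction. In simulated DRG data with 23410 probe sets, a change of 1.5-fold was called for 61.2% of the probe sets that had one and a change of 2-fold for 89.6%. That simulation had independent noise, with 67 probe sets changed by 1.5-fold, 67 by 2-fold and 66 by 4-fold. An adjusted p under 0.05 is easier to reach with so many changes than in the real fit with 17 calls. These shares may thus be too high for a member.

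The genes of compact myelin came first in this comparison. Mbp, the myelin basic protein that holds the inner faces of the membrane together, had 9.72, 10.09 and 10.09 in mutant DRG, against 9.74, 10.02 and 9.92 in control DRG. Replicate 1 was the lowest array of each genotype, and the groups overlapped (log2 difference 0.07, SE 0.12, adjusted p = 0.91 by limma). Pmp22, a membrane protein of compact myelin whose copy number causes inherited neuropathy, had 12.51, 12.67 and 12.54 in mutant DRG, against 12.45, 12.69 and 12.54 in control DRG. The difference was 0.01 (95% interval -0.18 to 0.21), and replicate 2 was the highest of each genotype. Mag, the myelin-associated glycoprotein of the membrane next to the axon, had 6.98, 7.13 and 7.21 in mutant DRG, against 6.98, 7.26 and 7.03 in control DRG. Its difference was also 0.01 (95% interval -0.20 to 0.23), and replicate 1 was again the lowest array in both genotypes.

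Sox10, which both Schwann cells and satellite glia need, had 8.50, 8.61 and 8.66 in mutant DRG, against 8.65, 8.67 and 8.53 in control DRG. The lowest array was mutant replicate 1 and the groups overlapped (log2 difference -0.03, SE 0.08, adjusted p = 0.95 by limma).

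Of the genes of satellite glia, Fabp7, a fatty acid binding protein of glial progenitors and satellite cells, had 12.26, 12.20 and 12.20 in mutant DRG, against 12.27, 12.26 and 12.39 in control DRG. It was the only member whose groups did not overlap, and the gap between them was under 0.01 log2 units, while 11.8% of all probe sets did not overlap and 6.77% did so with mutant lower. Its log2 difference was -0.09 (SE 0.07, 95% interval -0.25 to 0.07, adjusted p = 0.77 by limma). Kcnj10, the Kir4.1 channel through which satellite glia take up potassium, had 7.96, 7.87 and 8.42 in mutant DRG, against 8.11, 8.0 and 8.07 in control DRG. Mutant replicate 3 was the highest array and the other mutant arrays were the lowest, so the mutant SD was 0.30 and the control SD 0.06, with a difference of 0.02 (95% interval -0.28 to 0.32). Without mutant replicate 3 the difference was -0.15 (adjusted p = 0.80 by limma).

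Gfap, the intermediate filament of astrocytes that satellite glia raise after nerve injury, was close to background in these uninjured ganglia. It had 5.85, 5.97 and 6.10 in mutant DRG, against 5.84, 6.10 and 5.86 in control DRG, and passed the background of its own array on 2 of 3 arrays of each genotype. Its difference was 0.04 (95% interval -0.18 to 0.26), and at this height above background a change in its transcript would show only in part.

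**Figure D1:**
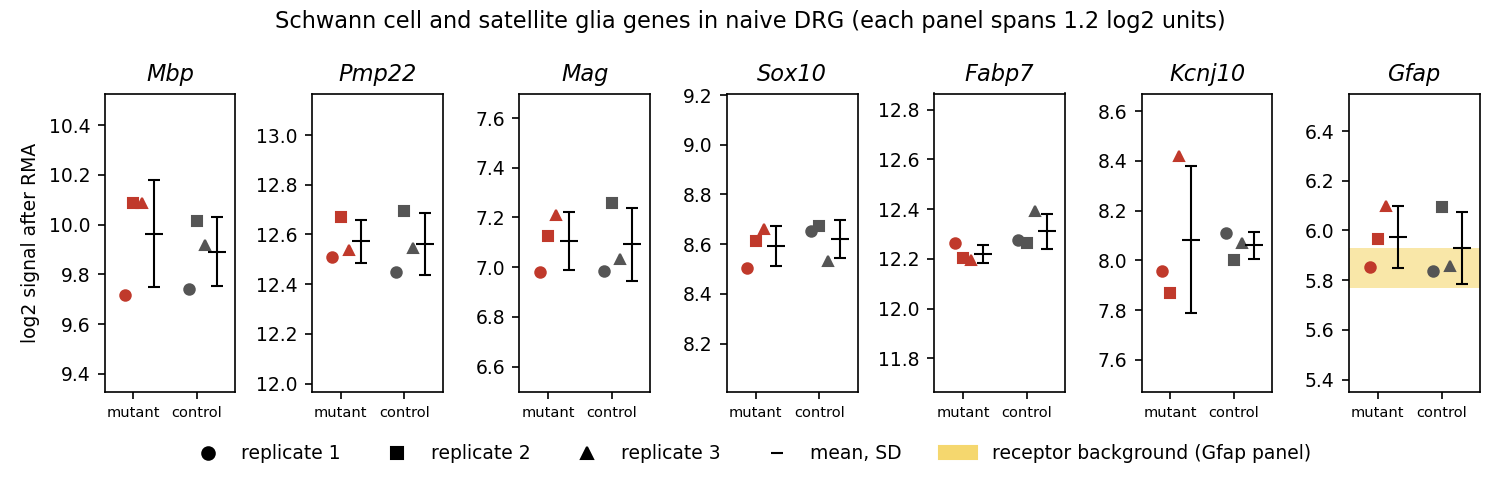
Log2 signal after RMA of the 7 members on each naive DRG array, mutant left of control, with the mean and SD (n = 3) beside the points and a scale of the same length in each panel. The arrays of the 2 genotypes overlap for 6 genes, and Fabp7 has 12.26, 12.20 and 12.20 in mutant and 12.27, 12.26 and 12.39 in control DRG.

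The myelin members varied together from array to array more than between genotypes, with Pearson r of 0.72 to 0.85 among them over the 6 arrays. This was not particular to them, since Gfap had r of 0.98 with Mag, 0.81 with Mbp and 0.63 with Pmp22. The mean of Mbp, Pmp22 and Mag was 9.73, 9.96 and 9.95 in mutant DRG, against 9.72, 9.99 and 9.83 in control DRG. Replicate 1 was thus the lowest array of each genotype. The mean of Fabp7, Kcnj10 and Gfap was 8.69, 8.68 and 8.91 in mutant DRG, against 8.74, 8.79 and 8.77 in control DRG, with mutant replicate 3 the highest. These genes did not share a pattern, with r of -0.17 for Fabp7 and Kcnj10, -0.56 for Fabp7 and Gfap, and 0.39 for Kcnj10 and Gfap. The mean of 8 fibroblast markers was lowest on the same arrays as the myelin mean, at 8.72, 9.10 and 9.15 in mutant DRG and 8.87, 9.42 and 9.19 in control DRG. Its part in the myelin values was not tested. The mean of 12 neuronal markers was 11.55, 11.50 and 11.44 in mutant DRG, against 11.56, 11.29 and 11.29 in control DRG. Keratinocyte markers, 9 measured, averaged 6.63 in mutant replicate 1, 5.93 and 5.92 in the other mutant arrays, and 6.20 in control replicate 3, against 5.77 and 5.91 in the other control arrays. With mutant replicate 1 and control replicate 3 left out, 0 of 7 members were called and their median difference was 0.05.

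**Figure D2:**
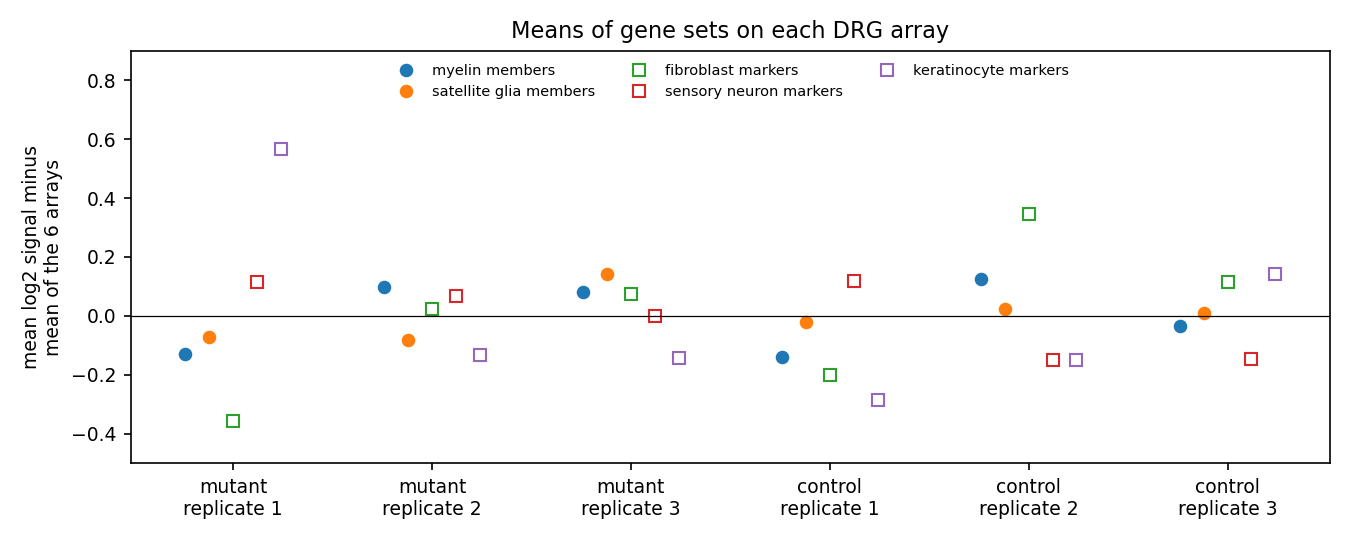
Mean log2 signal of 5 gene sets on each DRG array, minus the mean of that set over the 6 arrays, with filled circles for the members and open squares for markers of other cells. The myelin members and the fibroblast markers were both lowest on replicate 1 of each genotype, and the keratinocyte markers were highest on mutant replicate 1.

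Over the 6 DRG arrays, the genes with the pattern most like the mean of Mbp, Pmp22 and Mag were Fsd2, Cped1, Kcnj13, Fn1 and Tnxb, with Pearson r of 0.99 to 1.00 among 19931 genes compared. Fsd2 was below background on all 6 arrays, while Fn1, the fibronectin of extracellular matrix, spanned 1.70 log2 units. The genes most like the mean of Fabp7, Kcnj10 and Gfap were Dpm3, 4930591A17Rik, G3bp1, Ddi1 and Uox, with r of 0.98 to 0.99. Of these, 4930591A17Rik, Ddi1 and Uox were below background on all 6 arrays. These values describe 6 arrays that share 1 normalization, and with so few points a high r is found among many genes.

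The other glial genes of DRG gave the same count. Over 77 further genes of Schwann cells and satellite glia, 0 were called, with a smallest adjusted p of 0.45 by limma and a median log2 difference of 0.01. At an unadjusted p under 0.05, 4 were higher and 4 lower, which is 10.4% of the 77, while 3.58% of all probe sets were higher and 3.56% lower. Where groups are said below not to overlap, the same held for 11.8% of all probe sets, 6.77% with mutant lower.

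Further myelin and sheath genes, 18 of 20 measured, had a median difference of 0.04. Sirt2, a deacetylase that is abundant in myelinating cells, averaged 10.58 ± 0.04 in mutant and 10.80 ± 0.04 in control DRG (SD, n = 3 each), and the groups did not overlap (log2 difference -0.22, SE 0.07, adjusted p = 0.51 by limma). Gjc3, a connexin of myelinating glia, differed by -0.22, Gldn, the gliomedin that gathers sodium channels at nodes, by 0.21, and Cnp, an enzyme of non-compact myelin, by -0.14, all with overlapping arrays.

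Among 14 glial transcription factors, the median was -0.04. Egr2, the factor that switches on the myelin programme in Schwann cells, lay at 7.48 to 7.92 in mutant and 7.21 to 7.44 in control DRG, without overlap (log2 difference 0.33, SE 0.13, adjusted p = 0.67 by limma). Zeb2, which represses inhibitors of myelination, differed by -0.16, Tfap2a, a factor of early Schwann cell precursors, by -0.14, and Sox2, a factor of immature Schwann cells, by -0.11.

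Signals between axon and Schwann cell run through neuregulin and its ERBB receptors, secreted LGI4 and the adhesion receptor ADGRG6. Their 13 genes had a median of 0.01, and none passed an unadjusted p of 0.05. Erbb3, the neuregulin receptor of Schwann cells, lay at 8.66 to 8.77 in mutant and 8.79 to 8.92 in control DRG (log2 difference -0.14, adjusted p = 0.72 by limma). Adgrg6 differed by -0.19 and Adam17, a protease that cuts neuregulin, by -0.18, and their groups did not overlap either. Thus 3 of the 13 did not overlap with mutant lower, against 6.77% of all probe sets. Adam23 had a difference of 0.33 with overlapping arrays.

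Of 10 genes of immature and non-myelinating Schwann cells, the median was -0.02, and the differences spanned the widest range of the glial lists. Gfra3, the receptor for artemin, which these Schwann cells and a class of nociceptors carry, lay at 9.36 to 9.59 in mutant and 9.71 to 9.90 in control DRG (log2 difference -0.33, SE 0.09, adjusted p = 0.45 by limma). Cdh19, a cadherin of Schwann cell precursors, lay at 8.97 to 9.36 in mutant and 9.27 to 9.66 in control DRG (log2 difference -0.39, adjusted p = 0.61 by limma). Ngfr, the p75 neurotrophin receptor of neurons and non-myelinating Schwann cells, differed by 0.30 and L1cam, an adhesion molecule of both, by 0.28. The 12 markers of sensory neurons had a median difference of 0.09 with 0 called, and their part in these values was not tested.

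Other satellite glia genes, 13 of 14 measured, had a median of 0.06. Glul, the glutamine synthetase by which satellite glia convert glutamate, lay at 10.38 to 10.51 in mutant and 10.26 to 10.33 in control DRG, without overlap (log2 difference 0.16, adjusted p = 0.69 by limma). Glul has 2 probe sets, and only the brighter in DRG is shown. P2ry12, a purine receptor, lay at 6.24 to 6.38 in mutant and 6.48 to 6.55 in control DRG (log2 difference -0.21, adjusted p = 0.60 by limma). P2ry12 is also carried by macrophages, whose 8 markers all had a negative difference, with a median of -0.13 and 0 called. The mean of these markers was 6.74 to 6.97 in mutant and 6.82 to 7.12 in control DRG, 6 of the 8 were above background on all arrays, and their part in the P2ry12 value was not tested. Plpp3, a lipid phosphatase, differed by 0.24 and Ptprz1, a glial phosphatase, by -0.17.

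Genes that Schwann cells raise after nerve injury, 12 of 13 measured, had a median of 0.03, with Bdnf at -0.13 and Jun, the factor that drives the repair state, at 0.14. The 14 measured genes of cholesterol synthesis, on which myelin growth depends, had a median of -0.02, with Lss, the lanosterol synthase, at 0.23 and Dhcr7, the last step of the pathway, at 0.23.

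**Figure D3:**
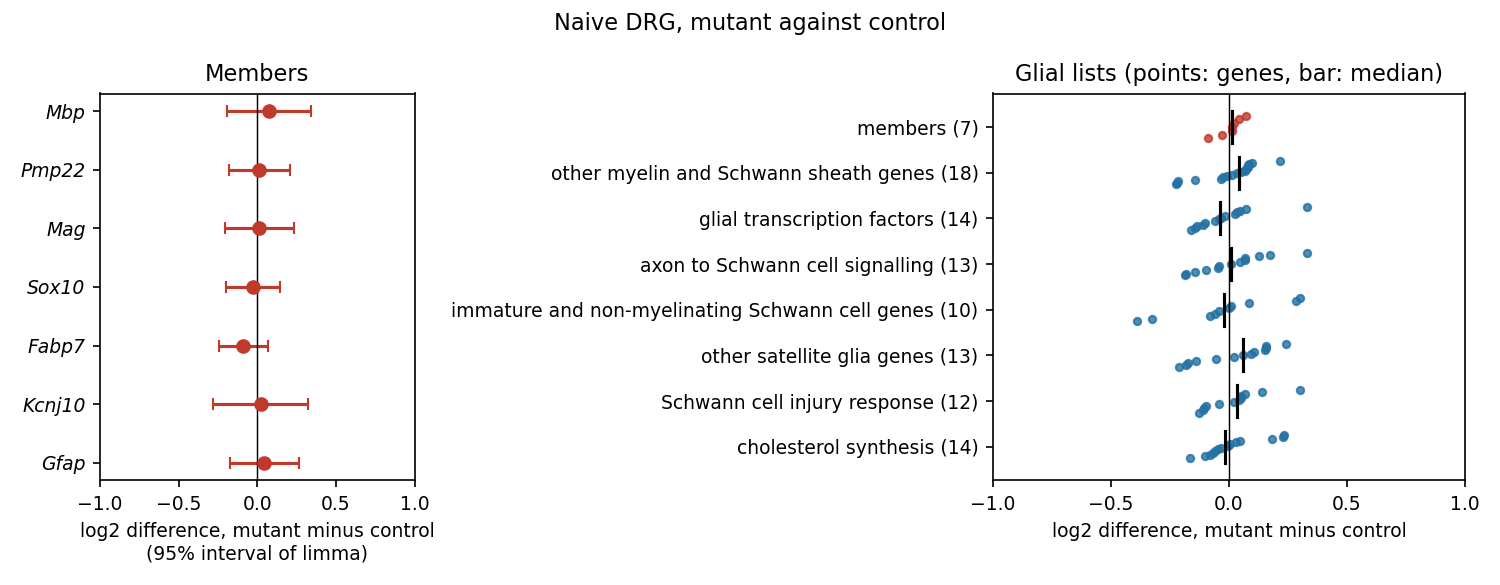
Log2 difference in naive DRG, mutant minus control, with the 95% interval of limma for each member on the left. On the right, each gene of the members, of the further glial lists and of cholesterol synthesis is a point, and the bar marks the median of the list. Every interval on the left includes 0 and the medians lie between -0.04 and 0.06.

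In epidermis, 3 of the 7 members were above the receptor background on every array of each of the 4 groups, and these were Mbp, Pmp22 and Sox10. In DRG 6 of 7 were, all but Gfap. Passing on a single array was common, at 67.6% to 69.4% of all probe sets paired with a gene in epidermis and 71.0% to 72.4% in DRG. The array medians of the tissues differ, at 6.51 to 6.58 in DRG and 5.37 to 5.48 in epidermis. Only the distance from background is therefore set side by side, and no test was made. Pmp22 was 6.71 log2 units above background in DRG and 2.85 to 4.76 above it on the epidermis arrays, and the gene is also used by epithelia outside nerve. Mbp was 4.07 above background in DRG and 1.78 to 2.03 above it in epidermis. Its gene also gives rise to longer golli transcripts outside myelin, which 1 probe set does not separate here. Sox10, which melanocytes of the epidermis also use, was 2.74 above background in DRG and 0.29 to 1.02 above it in epidermis.

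The remaining members were at or below background there on most arrays. Fabp7 was 6.40 log2 units above background in DRG and below it on 12 of 12 epidermis arrays, where it lay between 3.86 and 4.39. Kcnj10, 2.21 above background in DRG, and Gfap were also below it on all 12 epidermis arrays. Mag, 1.24 above background in DRG, passed it on 4 of 12 epidermis arrays by at most 0.18, and these were 0 of 3 CFA mutant, 1 CFA control, 2 naive mutant and 1 naive control arrays. A probe set below this background may still carry transcripts too few to be detected.

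**Figure D4:**
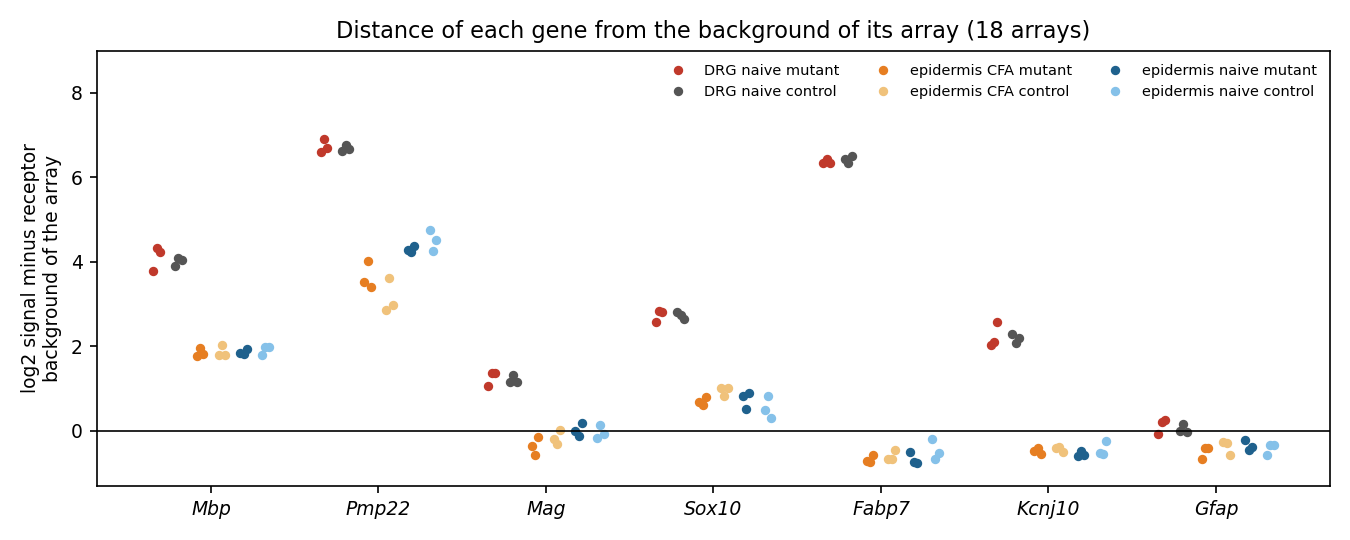
Log2 signal of each member minus the receptor background of the same array, for 6 groups of 3 arrays each, with background at 0. Fabp7 and Kcnj10 are above 0 on all DRG arrays and below it on all epidermis arrays, and Mbp, Pmp22 and Sox10 are above it on all 18.

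Between genotypes, 0 of 7 members were called in CFA epidermis, where 0.179% of probe sets were, and 0 of 7 in naive epidermis, where 0.0299% were. These shares rest on 42 and 7 probe sets, and with single arrays left out the counts were 15 to 146 in CFA epidermis and 0 to 10 in naive epidermis. In CFA epidermis leaving out mutant replicate 2 gave 15, mutant replicate 3 146, control replicate 1 16 and control replicate 3 104. In naive epidermis the count was 0 when control replicate 1 or 3 was left out, 1 for mutant replicate 2, and 4 for mutant replicate 1 or 3. At an unadjusted p under 0.05 the count was 2 of 7 in CFA epidermis, against 8.96% of all probe sets, and 0 of 7 in naive epidermis, against 8.94%. In CFA epidermis Pmp22 had 8.29, 8.76 and 8.12 in mutant, against 7.65, 8.34 and 7.67 in control mice (log2 difference 0.50, 95% interval 0.03 to 0.98, adjusted p = 0.52 by limma). Sox10 had 5.46, 5.37 and 5.52 in CFA mutant, against 5.81, 5.53 and 5.71 in CFA control epidermis, where the groups did not overlap, as for 14.3% of all probe sets (log2 difference -0.24, adjusted p = 0.55 by limma). In naive epidermis Pmp22 had 8.87, 8.92 and 9.01 in mutant, against 9.35, 8.83 and 9.13 in control mice, a difference of -0.17. Sox10 had 5.41, 5.19 and 5.52 in naive mutant, against 5.09, 5.40 and 4.91 in naive control epidermis, a difference of 0.24 (adjusted p = 0.61 by limma).

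After CFA, Pmp22 was lower than in naive epidermis in both genotypes, and Sox10 was higher in control mice. The comparison was with naive mice, and no vehicle arrays were used. In mutant mice 1 of 7 members was called, where 26% of all probe sets were, and in control mice 2 of 7, where 26.3% were. Pmp22 fell by 0.54 in mutant mice (SE 0.15, adjusted p = 0.030 by limma), a call that was lost in a fit without shared spread (adjusted p = 0.15) and without either of 2 CFA mutant arrays, replicates 1 and 3, or any single naive mutant array. In control mice it fell by 1.22, which is 2.33-fold (SE 0.20, adjusted p = 0.0018 by limma), and missed the threshold in the fit without shared spread (adjusted p = 0.060). The CFA and naive arrays of Pmp22 did not overlap in either genotype, and neither did those of 43.5% of all probe sets in mutant and 43.8% in control mice.

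Sox10 differed by 0.07 after CFA in mutant mice (95% interval -0.15 to 0.30, adjusted p = 0.63 by limma) and rose by 0.55 in control mice (SE 0.13, adjusted p = 0.015 by limma). The rise missed the threshold without CFA control replicate 1, naive control replicate 1 or naive control replicate 3, with adjusted p of 0.052 to 0.054, and in a fit without shared spread (adjusted p = 0.11). Of 6 melanocyte markers, 5 were above background on every epidermis array and Tyr on none. In control mice Tyrp1, a pigment enzyme, fell by 0.64 (adjusted p = 0.043 by limma), Mlana had a difference of 0.28 (adjusted p = 0.069), and Mitf, Dct and Pmel lay between -0.15 and 0.00. Mitf has 2 probe sets, and only the brighter in epidermis is shown. The list mean was 4.87 to 5.12 in CFA mutant, 4.93 to 5.28 in CFA control, 4.97 to 5.19 in naive mutant and 4.97 to 5.37 in naive control epidermis, and its part in the Sox10 values was not tested.

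Mbp differed by 0.09 in mutant and by 0.09 in control mice after CFA, with intervals of -0.10 to 0.28 and -0.14 to 0.31. The difference between genotypes in the CFA response was called for 0 of 7 members, where 0.0256% of probe sets were called, and 2 of 7 passed an unadjusted p of 0.05, as 8.26% of all did. The share called rests on 6 probe sets, and with single arrays left out the count was 2 to 8, except for 87 when CFA control replicate 3 was dropped and 76 when CFA mutant replicate 3 was. It was 0.67 for Pmp22 (SE 0.28, adjusted p = 0.55 by limma) and -0.48 for Sox10 (SE 0.18, adjusted p = 0.49). The responses of the genotypes are thus not shown to differ for either gene. In simulated data this test called 19.4% of the differences of 1.5-fold and 77.6% of the differences of 2-fold. As in DRG, the simulation held more changes than the 6 calls of the real fit, so these shares may be too high.

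**Figure D5:**
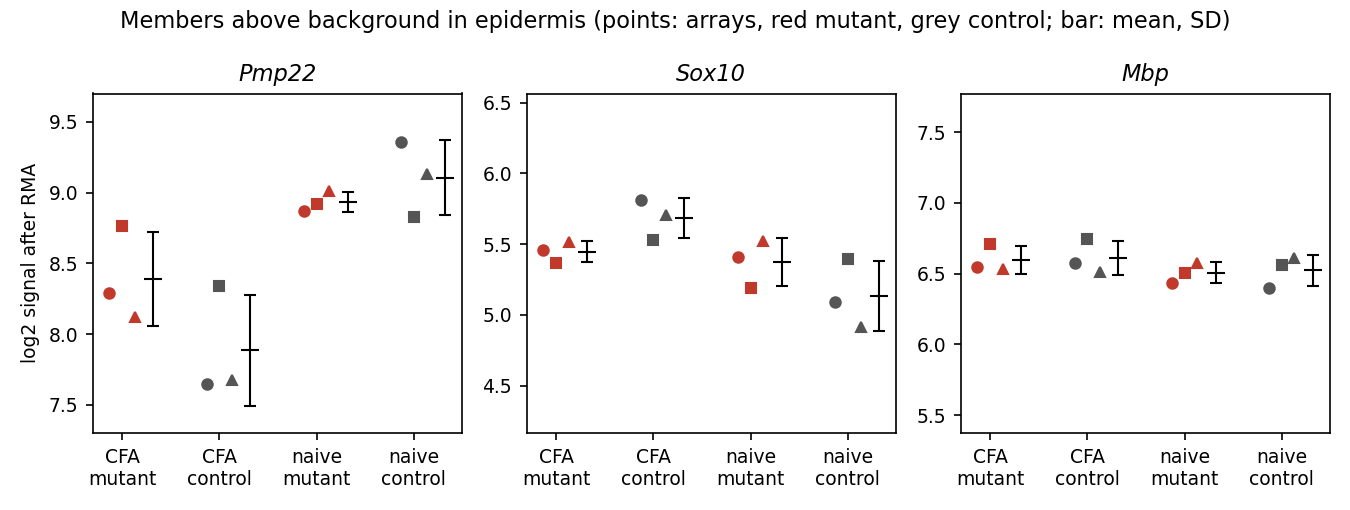
Log2 signal after RMA of the 3 members above background in epidermis, for CFA mutant, CFA control, naive mutant and naive control mice, with each array as a point (circle, square and triangle for replicates 1, 2 and 3) and the mean and SD (n = 3) beside them. Pmp22 lies lower on the CFA arrays of each genotype than on its naive arrays, and Mbp stays between 6.40 and 6.74.

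Several further genes of the glial lists changed with CFA in epidermis, where other cells use them too. Those named below were picked by the size of their change, so they do not stand for the direction of their lists. Of the 77 genes, 11 were higher and 8 lower in mutant mice, 24.7% in all, and 17 were higher and 11 lower in control mice, 36.4% in all, while over all probe sets 12.9% rose and 13.1% fell in mutant mice and 11.5% rose and 14.8% fell in control mice. Fa2h, the hydroxylase of fatty acids for myelin and for skin barrier lipids, averaged 6.08 ± 0.43 in CFA and 8.73 ± 0.57 in naive mutant epidermis (fall of 2.65 on the log2 scale), and 5.96 ± 0.36 in CFA and 9.14 ± 0.14 in naive control epidermis (fall of 3.18). Egr2 fell by 0.86 in mutant and by 1.27 in control mice. Of the 14 glial transcription factors, 4 were called higher and 1 lower in mutant mice, and 5 higher and 1 lower in control mice. Btc, the ERBB ligand betacellulin, fell by 2.77 in mutant mice and fell by 2.12 in control mice. Jun fell by 1.53 in mutant mice and fell by 1.93 in control mice. Atf3, a stress factor, fell by 2.11 in mutant mice and fell by 2.34 in control mice. Itga6, the integrin that anchors Schwann cells and basal keratinocytes, rose by 1.17 in mutant and by 1.07 in control mice. Aldoc, a glycolytic enzyme of glia, fell by 1.10 in mutant and by 1.62 in control mice. Of the 13 other satellite glia genes measured, 4 were called higher and 1 lower in mutant mice, and 3 higher and 4 lower in control mice.

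The genes of cholesterol synthesis, on which both myelin and the skin barrier draw, fell together. In mutant mice 13 of 14 were lower, with a median of -1.10, and in control mice 14 of 14, with a median of -1.42, against the same 13.1% and 14.8% of all probe sets. Idi1, an isomerase early in the pathway, fell by 1.15 in mutant (adjusted p = 0.026 by limma) and by 2.17 in control mice (adjusted p = 6.5e-06 by limma). Idi1 has 2 probe sets, and only the brighter in epidermis is shown. All 14 had a positive difference between genotypes in the response, with a median of 0.39 against 0.02 over all probe sets, and 0 were called. Their mean was 8.63, 8.38 and 8.07 in CFA mutant, against 7.94, 8.16 and 7.88 in CFA control epidermis. The 14 genes were read on the same arrays and are not 14 independent signs. The comparisons in epidermis share arrays, so they are not independent of each other.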

How the data were processed

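RNA of epidermis and DRG was hybridised to Affymetrix Mouse Gene ST arrays, with 3 biological replicates per group. The sources used here do not say whether a replicate pools mice. The values deposited by the authors are log2 signals summarised by RMA (Partek), for 35556 probe sets with 0 missing values, and were used as they stand. The platform table pairs 23410 probe sets with at least 1 gene. These were tested, and only the 21789 with exactly 1 gene were named. Of the remainder, 1621 have several genes and 12146 are unnamed.

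Groups were compared within a tissue with limma 3.58.1 (lmFit, eBayes) under R 4.3.3, two-sided, with Benjamini-Hochberg adjustment over 23410 probe sets, without trend, robust or block terms. The interaction was fitted on all 4 epidermis groups. An adjusted p under 0.05 was a call. Each fit was checked on simulated data with known changes. A gene with several probe sets took its brightest. Background was the 95th percentile of 1205 odorant and vomeronasal receptor probe sets. Depth has no count here, and the number of arrays limits precision. Sequences came from RefSeq windows of GRCm38.p6.

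Members and lists were chosen with earlier results of these data known. All members are named, with up to 4 genes of each other list, by smallest p in DRG and by size among called genes in epidermis, and the 5 genes most alike in pattern. Files were read with the R package data.table (version 1.17.8) and figures drawn in Python 3.11.15 with numpy 2.4.6, pandas 2.3.3 and matplotlib 3.10.9.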

Additional observations from a re-analysis of the deposited data

How the results depend on the processing

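In DRG, 0 members were called under each of 15 alternatives, with 6 tested without dim probe sets, where Gfap dropped out, and 7 otherwise. These alternatives covered scaling (quantile or median), the probe sets tested (without dim ones, or all of them), the test (ordinary ANOVA, array weights, or trend and robust options), a 2-fold threshold, both arrays with more keratinocyte transcripts left out, and each array left out in turn. The DRG median ranged from -0.04 to 0.08 when 1 array was left out. The labels do not say whether replicate numbers pair the arrays. Deviations of the same number correlated at 0.18, -0.05 and 0.15 in DRG, where 3 of 6 arrays correlated best with their own number. Between genotypes in CFA epidermis they correlated at 0.00, 0.02 and 0.23, with 2 of 6 arrays best with their own number. So few arrays cannot decide whether the numbers pair them. With replicate number as a block, 0 members were called in DRG, 1 in the CFA response of mutant and 2 in that of control epidermis, as without it.

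The single call in the CFA response of mutant epidermis, Pmp22, became 0 with a 2-fold threshold, with all probe sets tested (adjusted p = 0.068 by limma), with ordinary ANOVA (adjusted p = 0.15) and with all epidermis groups in one fit (adjusted p = 0.058), and the count was 0 to 1 with single arrays left out. The 2 calls in control epidermis became 1 with a 2-fold threshold and 0 with ordinary ANOVA (Pmp22 adjusted p = 0.060), and 1 to 2 with single arrays left out. With background set at the receptor median plus 1, 7 members were above it in CFA control and 6 in each other epidermis group, instead of 3. At the 90th percentile 4 were in CFA control, naive mutant and naive control and 3 in CFA mutant epidermis, and at the 99th percentile 2 in each group. Over all probe sets, the calls between genotypes became 51 in DRG, 289 in CFA and 0 in naive epidermis with the block, and 1, 0 and 0 with ordinary ANOVA. The calls of the CFA response became 3859 in mutant and 3895 in control epidermis with ordinary ANOVA, and with median centring 30.8% of the calls in control epidermis were higher instead of 43.6%. No called value changed sign. Signal close to background limits what could be seen for Gfap in DRG and for Mag in epidermis.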
